A study of Arabidopsis thaliana with 4 samples.

Results

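Plant defensins of the PDF1 and PDF2 groups in Arabidopsis thaliana were followed across the 4 arrays of the study. Of the 9 loci considered, PDF1.1, PDF1.2, PDF1.2b, PDF1.2c, PDF1.3, PDF1.4, PDF2.1, PDF2.2 and PDF2.3, 7 had a probe set paired with that locus alone in the array annotation, among 13286 genes with a probe set of their own. PDF1.2c and PDF1.3 had none and were not analysed here. The family was selected because its member PDF1.2b had been seen to rise in the comparison of DEX with mock, so every change of a member in that comparison is given as a description and none is offered as a test.

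Defensins are small secreted proteins held together by disulfide bridges between conserved cysteines, and many of them damage the membranes of fungi. PDF1.2, also called PDF1.2a, is the standard marker of the joint jasmonate and ethylene defence response in leaves, where the transcription factors ERF1 and ORA59 bind its promoter after fungal attack, while salicylate signalling restrains it. PDF1.2b and PDF1.2c are near-identical copies of it.

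The seedlings carried 35S::Dof3.2-GR in both groups. In this line the constitutive 35S promoter drives Dof3.2, a Dof zinc finger transcription factor, joined to the steroid-binding part of the glucocorticoid receptor, which keeps such a protein out of the nucleus until dexamethasone (DEX) is given. Growth at 22 °C lasted 4 days on agar medium, which held 50 µg/ml kanamycin beside 1% sucrose, and 4 more days in liquid culture with shaking, and 10 µM DEX or a mock treatment followed for 3 h. Of the 4 arrays, 2 were mock and 2 were DEX. The labels do not say whether replicates were separate cultures, so the spread between arrays may be technical. A DEX-treated line that lacks the fusion was not analysed here, and an effect of DEX itself cannot be told apart from one of the fusion. The arrays hold RNA of whole seedlings, in which a change in the number of expressing cells and a change in RNA per cell cannot be told apart.

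The arrays were alike in scale, with median signals between 190.6 and 193.3. Across the 13648 probe sets kept for testing, log2 signals correlated at 0.985 between the mock arrays, at 0.992 between the DEX arrays and at 0.982 to 0.986 across groups. The seedling label was checked on 10 markers of root, green tissue and seed, of which 4 had a probe set of their own. The summed signal of the green tissue markers RCA and PRK was 32051 to 33573 on the mock and 28123 to 34155 on the DEX arrays. The summed signal of the root markers PYK10 and EXPA7 was 13634 to 14223 on the mock and 13789 to 14760 on the DEX arrays. Nearly all of this sum was PYK10, since EXPA7 had signals of 158.1 and 211 under mock and 140.2 and 175.2 under DEX. In both tissues the groups overlapped, in the sums and in each of the 4 genes. The 3 seed and silique markers had no probe set of their own.

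PDF1.2b and PDF1.2 were higher on both DEX arrays than on both mock arrays, by 2.12-fold and 1.68-fold. The members of the PDF2 group lay within 1.15-fold of the mock level. Both DEX signals of PDF1.4 lay between the mock signals, and PDF1.1 was barely above the bottom of the signal scale. Of the 7 member probe sets, 6 were bright enough to be fitted and PDF1.1 was not. In the fit across all probe sets (limma, Benjamini-Hochberg adjustment, threshold 0.05), 1 member, PDF1.2b, rose and 0 fell, while 0.293% of all tested probe sets rose and 0.293% fell. Because the family was selected on this comparison, nothing is read from that count.

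**Figure D1:**
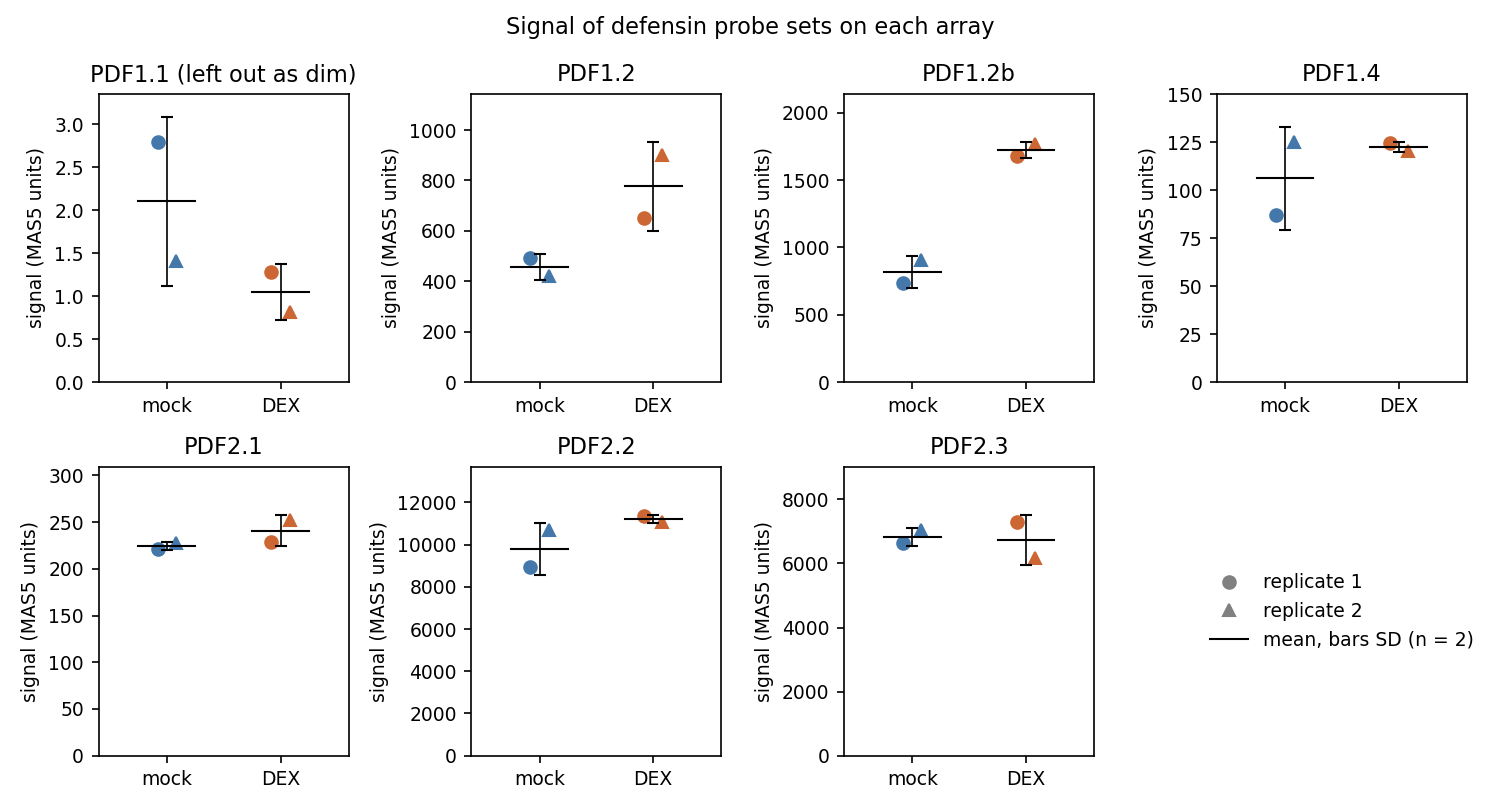
Signal of each of the 7 defensin probe sets (vertical axis, MAS5 units, a scale of its own in each panel) on the 2 mock and 2 DEX arrays; circles are replicate 1, triangles replicate 2, lines the means and bars the SD (n = 2 each). Both DEX points stand clear of both mock points for PDF1.2 and PDF1.2b, and the points of PDF1.4 and PDF2.3 overlap between groups.

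The PDF1.2b (AT2G26020) signal was 734.7 and 903.7 under mock and 1681 and 1767 under DEX. The lower DEX value thus stood 1.86-fold above the higher mock value, and the widest DEX over mock pair was 2.41-fold. Its mean went from 819.2 ± 120 under mock to 1724 ± 61.1 under DEX (SD over the 2 arrays of each group), a log2 change of 1.08 ± 0.13 (SE). The 95% interval of the fold was 1.74 to 2.57. Within groups the arrays differed by 1.23-fold in mock and 1.05-fold in DEX. By size of rise it ranked 14 among the 13648 tested probe sets. Its probe set is the 1 of the 7 with the x_at suffix, a kind in which probes can also bind other transcripts, so the signal may include PDF1.2, PDF1.2c or PDF1.3 and cannot be assigned to this copy alone.

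The PDF1.2 (AT5G44420) signal was 493.4 and 421.7 under mock and 650.6 and 902.2 under DEX. The groups did not overlap, but the DEX arrays differed by 1.39-fold from each other, more than the 1.32-fold gap between the lower DEX and the higher mock value. Its mean went from 457.5 ± 50.8 to 776.4 ± 178 (SD over the 2 arrays of each group), a log2 change of 0.75 ± 0.17 (SE), with an interval of 1.3-fold to 2.17-fold. PDF1.2 did not pass the threshold. Its log2 change was 0.86 without mock replicate 1 and 0.63 without mock replicate 2. In these fits the probe set's own spread comes from the DEX arrays alone. The fit adjusts that spread toward the variance trend over all kept probe sets. Nothing is read from these fits, since they use the comparison on which the family was selected. Without DEX replicate 1 its log2 change was 0.98, and without DEX replicate 2, the array with the highest value, it was 0.51. The probe set has the plain suffix, but probe sequences were not available, so binding of PDF1.2b or PDF1.2c transcripts was not checked. The signals of PDF1.2 and PDF1.2b may therefore share transcripts. The intervals of PDF1.2 and PDF1.2b overlap, and the difference between their changes was not tested, since both values had been seen before the family was selected.

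PDF1.4 (AT1G19610), a more distant member of the PDF1 group, had signals of 87.29 and 125.1 under mock and 124.5 and 120.6 under DEX. One mock array was low and the other was as high as the DEX arrays. The log2 change was 0.23 ± 0.22 (SE), with an interval from -0.26 to 0.72. Without mock replicate 1 it was -0.03, so the positive value rests on that array. The mock mean of 106.2 lies under the level of 110.6 below which probe sets were left out, though the mean over all 4 arrays lies above it.

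PDF1.1 (AT1G75830), known mainly as a seed defensin, had signals of 2.8 and 1.41 under mock and 1.28 and 0.82 under DEX. Values this low on the MAS5 scale carry no usable fold, and the mock arrays alone differed by 1.98-fold. It was left out of the fit as dim.

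The PDF2 members are neighbours on chromosome 2. PDF2.2 (AT2G02100) had signals of 8942 and 10674 under mock and 11346 and 11074 under DEX. The DEX arrays were above both mock arrays, but by only 1.04-fold at the nearest pair, less than the 1.19-fold between the mock arrays. Its log2 change was 0.20 ± 0.12 (SE), with an interval of 0.959-fold to 1.37-fold. Without mock replicate 1 it was 0.07, and without mock replicate 2 it was 0.33.

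PDF2.3 (AT2G02130) had signals of 6636 and 7035 under mock and 7279 and 6167 under DEX. The DEX arrays lay on either side of the mock arrays. The log2 change was -0.03 ± 0.11 (SE), and its sign changed with the array left out, from -0.15 without DEX replicate 1 to 0.09 without DEX replicate 2. Its interval ran from 0.822-fold to 1.17-fold.

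PDF2.1 (AT2G02120) had signals of 221.6 and 227.4 under mock and 229.1 and 252.6 under DEX. The nearest pair was 1.01-fold apart, so the order of the groups is within the spread of single arrays. The log2 change was 0.10 ± 0.15 (SE), with an interval of 0.849-fold to 1.35-fold. Without DEX replicate 1 and without DEX replicate 2 the log2 change was 0.17 and 0.03.

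**Figure D2:**
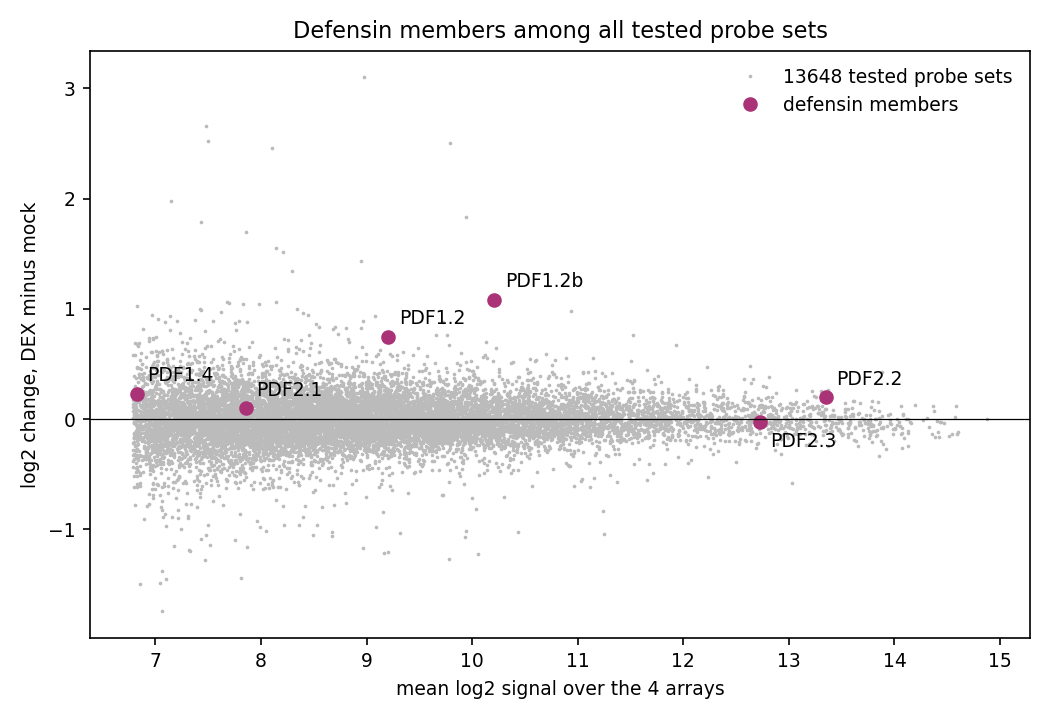
Log2 change, DEX minus mock (vertical axis), against the mean log2 signal over the 4 arrays (horizontal axis) for all 13648 tested probe sets (grey) and the 6 fitted defensins (purple). PDF1.2b at 1.08 and PDF1.2 at 0.75 lie at the upper edge of the cloud, and the other 4 members lie between -0.03 and 0.23.

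Among the 6 fitted members, both DEX arrays were above both mock arrays in 4 and the groups overlapped in 2. Over all tested probe sets, both DEX arrays were above both mock arrays in 18.2% and below them in 21.1%, so that the groups stood apart in 39.3%. The members' median log2 change was 0.21, against -0.01 over all tested probe sets. The median does not describe the family, since PDF1.2b and PDF1.2 stood far above it and PDF2.1 and PDF2.3 below it.

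The profile over the 4 arrays, each probe set centred on its own mean log2 signal, was set against that of PDF1.2b for 7291 other single-gene probe sets. The nearest were AT5G35580, AT3G47980, AT3G02910, AT2G45340 and AT3G13650, with root mean square differences of 0.07, 0.11, 0.15, 0.16 and 0.16 on the log2 scale over 4 arrays. AT5G35580 went from 112.3 and 131.4 under mock to 226.9 and 260.6 under DEX. AT3G02910 went from 1426 and 1356 to 2842 and 2661, and AT3G13650 from 2100 and 2413 to 3839 and 3822. All 5 had higher signals on both DEX arrays, which nearness to the PDF1.2b profile requires. PDF1.2 itself was at 0.29 from PDF1.2b, with 41 of the other probe sets nearer. PDF1.4 was at 0.43, PDF2.2 at 0.44, PDF2.1 at 0.50 and PDF2.3 at 0.57.

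Further members of the defensin family outside the 9 loci were PDF1.5, PDF2.4, PDF2.5, PDF2.6, PDF3.1 and PDF3.2. Of these 6 genes 5 had a probe set of their own and 1, PDF2.5, was bright enough to test. PDF2.5 (AT5G63660), which encodes a defensin linked to cadmium handling, had signals of 824.4 and 957.7 under mock and 1077 and 1068 under DEX. Both DEX arrays were higher, and the log2 change of 0.27 ± 0.12 (SE) did not pass the threshold (adjusted p = 0.526, limma). PDF2.6, the next gene after PDF2.3, had signals of 19.03 to 25.55 over the 4 arrays, PDF2.4 of 4.41 to 18.6, PDF3.1 of 1.25 to 7.66 and PDF3.2 of 0.935 to 3.33. These 4 were dim and were not tested.

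The pathways that control PDF1.2 were sparsely covered. Of 76 genes listed for jasmonate and ethylene signalling, jasmonate and ethylene synthesis, their defence effectors and salicylate defence, 10 had a probe set of their own and 8 were tested. None of the 8 passed in limma, against 0.586% of all tested probe sets, and 1, WRKY53, had an unadjusted p under 0.05, as did 9.25% of all tested probe sets. The median log2 change of the 8 was -0.07. The lists mix genes on the side that raises PDF1.2 with genes that restrain it, so neither count nor median measures pathway activity. ERF1 and ORA59, the direct activators of PDF1.2, were not analysed here, and neither was any of the 18 synthesis genes.

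In jasmonate and ethylene signalling 4 genes were tested of 36. EIN3 (AT3G20770), the ethylene transcription factor upstream of ERF1, had signals of 1163 and 1038 under mock and 1157 and 1084 under DEX, with the groups overlapping. MYC3 (AT5G46760) and MYC4 (AT4G17880), relatives of the jasmonate factor MYC2, had log2 changes of -0.19 ± 0.26 and 0.24 ± 0.17 (SE). The DEX arrays of MYC3 were far apart, at 304.4 and 157, on either side of the mock values of 267.2 and 233.1. ROXY19 (AT1G28480), a glutaredoxin that can repress PDF1.2 when overproduced, had a log2 change of -0.17 ± 0.24 (SE), with signals of 106.1 and 163.5 under mock and 131.9 and 104.1 under DEX, which overlap. ERF96, a small ERF factor, was dim, with signals of 3.37 to 18.01.

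In the list of jasmonate and ethylene defence effectors 2 genes were tested of 10. The list was written from general knowledge, and whether its genes respond to jasmonate or ethylene in these seedlings was not tested. OSM34 (AT4G11650), an osmotin-like protein, had signals of 5452 and 5822 under mock and 5571 and 5118 under DEX, a log2 change of -0.08 ± 0.10 (SE). THI2.2 (AT5G36910), a thionin, had a log2 change of -0.07 ± 0.22 (SE), with DEX signals of 182.3 and 118.1 on either side of mock signals of 161.8 and 147.1. THI2.1, another thionin and a jasmonate marker, was dim, between 25.42 and 28.91 on all 4 arrays. In both tested effectors the groups overlapped. Over all tested probe sets the groups stood apart in 39.3%. The difference between the effectors and the defensins was not tested, since PDF1.2b and PDF1.2 had been seen to rise before the family was selected.

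In the salicylate list 2 genes were tested of 12. WRKY53 (AT4G23810), a WRKY factor of immunity and senescence, had signals of 246.6 and 202.3 under mock and 159.3 and 153.7 under DEX. Both DEX arrays were lower, and the log2 change of -0.51 ± 0.17 (SE) did not pass the threshold (adjusted p = 0.352, limma). SAG101 (AT5G14930), a partner of EDS1, had a log2 change of 0.16 ± 0.18 (SE).

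**Figure D3:**
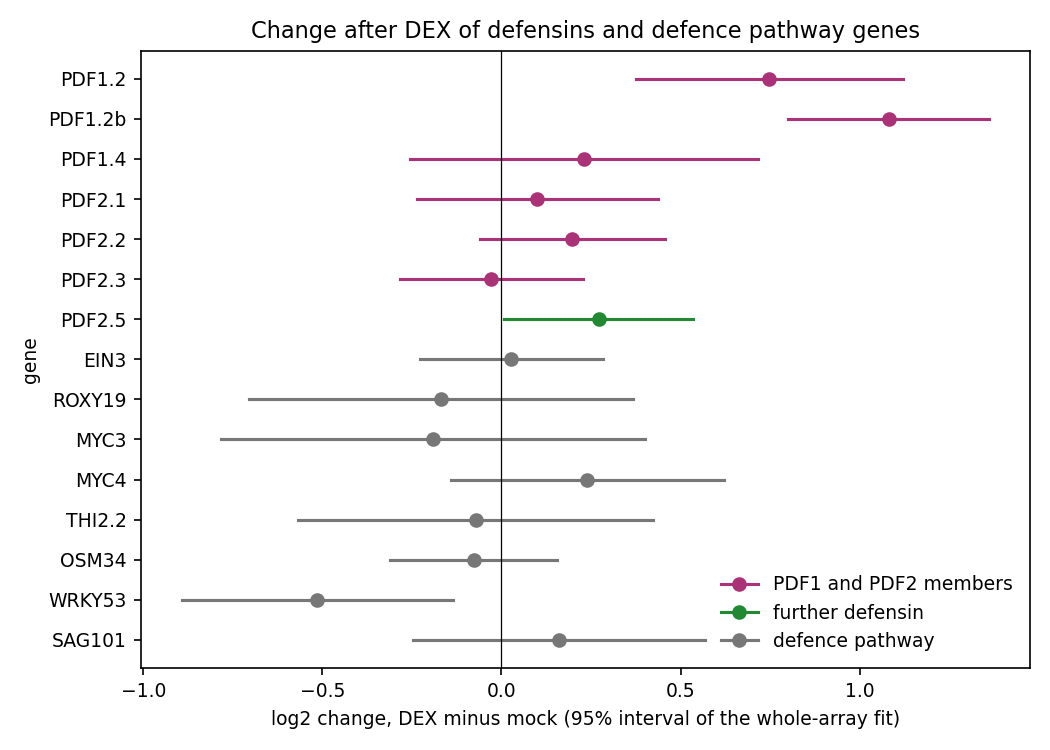
Log2 change, DEX minus mock (horizontal axis, points), with the 95% interval of the whole-array fit (lines) for the 6 fitted members (purple), PDF2.5 (green) and the 8 tested defence pathway genes (grey). PDF1.2b at 1.08 lies farthest to the right and WRKY53 at -0.51 farthest to the left.

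In gene order, PDF1.2 and PDF1.2c are adjacent on chromosome 5, PDF1.3 and PDF1.2b are adjacent on chromosome 2, and PDF2.2, PDF2.1, PDF2.3 and PDF2.6 lie together elsewhere on chromosome 2 with 1 other locus among them. Gene order was taken from RefSeq assembly TAIR10.1, while the build behind the array is not given in the sources used here, and coordinates are therefore left out. Within 5 protein-coding genes of any of the 9 loci there were 51 other genes, of which 27 had a probe set of their own and 16 were tested. None of the 16 passed in limma, against 0.586% of all tested probe sets, and their median log2 change was -0.02. An unadjusted p under 0.05 was found for 2 of the 16, against 9.25% of all tested probe sets, so these 2 are given as values only. AT5G44380, 4 genes before PDF1.2, had signals of 1837 and 1858 under mock and 1210 and 1446 under DEX, and AT2G25980, 4 genes before PDF1.2b, had 1344 and 1648 under mock and 1214 and 1119 under DEX. AT5G44440, the gene next to PDF1.2c on the side away from PDF1.2, had signals of 37.73 and 20.36 under mock and 76.63 and 86.49 under DEX. Both its DEX values were higher but still under the level of 110.6, so it was not tested. These 3 neighbours were singled out after their values were seen.

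**Figure D4:**
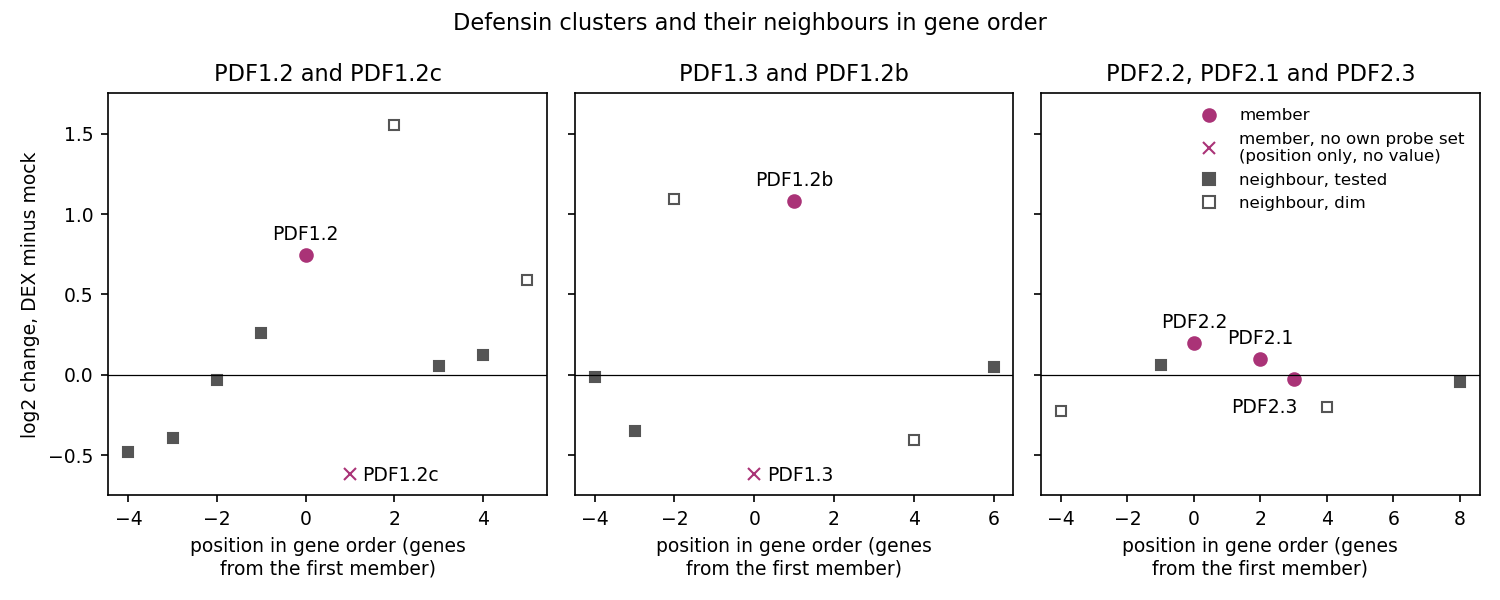
Log2 change, DEX minus mock (vertical axis), of defensins and neighbours by position in gene order (horizontal axis, genes from the first member of each cluster); purple circles are members, filled squares tested neighbours, open squares dim neighbours, and crosses mark only the place of PDF1.2c and PDF1.3, which have no value. PDF1.2 and PDF1.2b stand above every tested neighbour, whose highest log2 change is 0.26. The dim neighbour AT5G44440, which was not tested, stands above both at 1.55. The family was selected on this comparison, so nothing is read from the standing of its members above the neighbours.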

How the data were processed

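Total RNA was labelled with biotin and hybridised to 4 one-colour Affymetrix arrays, per the labels' protocols. The deposited values are linear intensities. The submitters' processing notes name MAS5, and its version and settings are not given in the sources used here. The mean after leaving out 2% of values at each end was 500 on every array, which hides any shift in total RNA per cell. For arrays, their number limits the precision.

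Of 22810 probe sets, 64 controls were left out. The log2 of each value was taken with no pseudocount, and probe sets with a mean under the 40th percentile (a signal of 110.6) were left out, which kept 13648. Probe sets were named through the array annotation where it gives 1 gene (13513) and matched to RefSeq TAIR10.1 loci by gene identifier (13436 matched); 503 had several genes and 8794 were not listed. No probe set with several genes held a member locus.

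The comparison of DEX with mock was fitted in limma 3.58.1 under R 4.3.3 with a group term and a variance trend on the mean. Its two-sided p-values were adjusted by Benjamini-Hochberg over every kept probe set. Each test had 9.74 degrees of freedom, of which 2 came from the arrays. An exact permutation test of 2 arrays against 2 cannot go below p = 0.333. The members, the 8 gene lists (92 genes) and the naming rule were chosen with earlier results of these data known. Named are all members, all tested list members, the dim ones by their range, and the 5 probe sets nearest to PDF1.2b. The correlation of the difference between mock replicates with that between DEX replicates was 0.109; the labels do not say that a number marks a shared batch. The 12 alternatives changed normalization, filter, pseudocount, variance model, the replicate block or left out an array.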

Additional observations from a re-analysis of the deposited data

How the results depend on the processing

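The defensins were selected on this comparison, so their values under the alternatives describe the same 4 arrays and add no support. Where an array is left out, its group has 1 array and is assumed to vary like the other group. A probe set's own spread then comes from that other group alone. The fit adjusts this spread toward the variance trend over all kept probe sets. The log2 change of PDF1.2b ran from 0.93 to 1.23 over the 12 alternatives and was past the threshold in each. That of PDF1.2 ran from 0.51 to 0.98 and was past it in 3, the replicate block and the fits without mock replicate 1 or 2. The count of defensins past the threshold was 1, and 2 with the replicate block; it was 1 to 2 when each array in turn was left out, with 2 without mock replicate 1 and without mock replicate 2. PDF1.4 turned negative without mock replicate 1 and PDF2.3 turned positive without mock replicate 2 or DEX replicate 2; neither had passed. The count of defence pathway genes past the threshold was 0 in every alternative that kept all 4 arrays. Of these genes, 10 were tested without the filter, 2 with the filter at the 60th percentile and 8 in the others. The 0 under the stricter filter therefore covers only 2 genes. The count over all probe sets, 80 in the comparison as reported, was 25 without the filter, 43 with a filter at the 60th percentile and 185 with the replicate block, and 26 to 502 with each array in turn left out; the cause was not tested. Of the called probe sets, 50% rose as reported, 50% after quantile normalization and 51.7% after median centring. The replicates share only a number, so the block is an alternative and no paired design. Neither PDF1.4 nor PDF2.1 could be fitted under the stricter filter, nor PDF1.4 without mock replicate 2 or either DEX array, since its mean then fell below the filter. PDF1.1 was too dim to be tested in any setting but the one without a filter.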
